A study of Homo sapiens with 4 samples.

Results

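Metallothioneins are small proteins whose many cysteines bind zinc and copper, and SLC30A1 is the transporter that carries zinc out of the cell across the plasma membrane. Described here are 10 genes, 9 metallothionein genes (MT1A, MT1E, MT1F, MT1G, MT1H, MT1M, MT1X, MT2A and MT3) and SLC30A1, of the 60483 gene rows in each count table. They were chosen by name, as the metallothionein genes of chromosome 16 and the zinc exporter, and selected on their read counts in knockout and control cells, whose difference was already known. Their levels in the 2 groups are therefore given as a description, with no test.

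The cells were H9, also called WA09, an established line of human embryonic stem cells (hESC). The samples were 2 libraries of control genotype and 2 of SLC35F2 knockout (KO) genotype, named here control 1, control 2, KO 1 and KO 2. SLC35F2 is a member of a family of membrane transporters. The sources used here do not say how the gene was knocked out, from how many clones the KO libraries came or whether the libraries of a group were separate cultures. The p-values below therefore measure the spread between these libraries, which may be technical. The libraries held between 27824693 and 37978705 reads assigned to genes. SLC35F2 itself (ENSG00000110660.13) stood at 41.1 and 27.1 CPM in the controls and at 12.1 and 9.65 in KO, where CPM is the reads of a gene in each 1000000 reads of its library, after scaling between libraries. Its log2 fold change was -1.65 ± 0.35 (SE), with an adjusted p of 0.580 over all genes in edgeR's quasi-likelihood test, so the libraries stood on the sides their labels give with RNA of the gene still present.

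All 10 hESC markers checked, among them POU5F1, SOX2 and LIN28A, were present in all libraries, with a summed level of 8370, 8528, 8968 and 6047 CPM in control 1, control 2, KO 1 and KO 2. KO 2 thus stood below the other libraries in this sum. NANOG, a pluripotency factor, had 61.2, 64.7, 46.2 and 19.1 CPM in that order (log2 fold change -0.95, interval -1.87 to -0.03, adjusted p = 0.997 in edgeR), and L1TD1 had 1156, 1169, 1068 and 496 CPM, so both lay below both controls; these and GATA2 below were named after their values were seen. Of the 8 liver and endoderm markers 3 had enough reads to be tested, with summed levels of 2.72 to 6.50 CPM. Of the 8 trophoblast and amnion markers 4 were tested, CGA was at 0 in all libraries, and control 2 had the highest sum (29.6 CPM against 14.9, 18.3 and 19.4 in control 1, KO 1 and KO 2). KRT7, a keratin, stood at 13.7 to 17.8 CPM and made up most of that sum except in control 2. There TFAP2A had 3.32 CPM, HAND1 2.22 and GATA3 0.929, against 0.186, 0.0265 and 0.212 in control 1. GATA3 was higher still in KO 2, at 1.52 CPM, and these 3 were also named after their values were seen. GATA2, a transcription factor, had 0.504 and 8.58 CPM in the controls against 0.109 and 0.146 in KO (log2 fold change -5.08, interval -8.64 to -1.53, adjusted p = 0.997 in edgeR), highest in control 2 as were the metallothioneins, and it was the 1 gene of this list that DESeq2 called. The 8 fibroblast markers summed to 557, 900, 581 and 1129 CPM and the 4 neuroectoderm markers to 471, 788, 532 and 924 CPM in the order above. These sums did not follow the groups, and both were higher in control 2 and KO 2 than in control 1 and KO 1. Of the fibroblast markers DCN and LUM were at 0 to 0.106 CPM, but others were abundant. COL1A1 had 128, 300, 46.8 and 552 CPM and THY1 296, 376, 429 and 337 CPM in the same order. The part of these differences in the levels below was not tested.

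In cells, free zinc is sensed by the transcription factor MTF1, which binds metal response elements in the promoters of metallothionein genes and of SLC30A1 and raises their transcription. Metallothioneins then hold the metal and SLC30A1 exports it. MT1 and MT2 forms are made in most tissues, whereas MT3 is mainly a brain form. The metallothionein genes form a cluster on chromosome 16, from 56589074 to 56684196 on GRCh38, a stretch of 95.1 kb. SLC30A1 lies on chromosome 1, from 211571568 to 211578742, on the minus strand.

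Promoter sequence was at hand for 4 of the 10 members, from RefSeq on GRCh38.p14, and is shown because these genes stood lower together in KO and MTF1 is known to act through short repeated elements there. Capitals mark each match to the core of the metal response element, searched on both strands as TGCACNC and TGCGCNC in the 250 bases before the RefSeq start. The MT1H window held 8 matches, that of MT2A 7, that of MT1X 4 and that of SLC30A1 1. Matches in MT1H and MT1X stood apart from each other, with no shared base. The MT2A window lies wholly inside an exon of a longer GENCODE transcript of that gene, so only 30 bases with 2 of its matches are printed, and 46 bases of MT1X next to its start are left out for the same reason. The plus strand is shown for the metallothioneins and the minus strand for SLC30A1.
MT1H, chr16:56669564-56669813: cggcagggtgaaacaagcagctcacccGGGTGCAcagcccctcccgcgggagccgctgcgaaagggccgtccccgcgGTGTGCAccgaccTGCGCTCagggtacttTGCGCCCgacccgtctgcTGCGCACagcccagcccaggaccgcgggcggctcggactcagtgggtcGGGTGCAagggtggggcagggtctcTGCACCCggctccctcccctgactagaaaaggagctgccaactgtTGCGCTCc
MT2A, chr16:56608431-56608460: TGCGCCCggcccagTGCGCGCggccgggtg
MT1X, chr16:56682220-56682423: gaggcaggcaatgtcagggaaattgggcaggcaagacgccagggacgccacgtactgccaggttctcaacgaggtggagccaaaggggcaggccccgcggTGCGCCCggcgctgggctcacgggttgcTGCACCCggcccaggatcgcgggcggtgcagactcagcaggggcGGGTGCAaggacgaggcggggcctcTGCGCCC
SLC30A1, chr1:211579162-211579411: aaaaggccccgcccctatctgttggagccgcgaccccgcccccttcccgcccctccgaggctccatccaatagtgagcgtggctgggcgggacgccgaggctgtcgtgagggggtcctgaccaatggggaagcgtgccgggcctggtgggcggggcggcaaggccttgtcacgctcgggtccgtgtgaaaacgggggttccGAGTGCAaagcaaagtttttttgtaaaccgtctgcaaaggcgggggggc

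Such matches are not rare by themselves. Of 35116 windows of this length before RefSeq starts, 24.8% held at least 1 match. At least 4 matches occurred in 0.37% of the windows and at least 7 in 0.0313%, that is in 11 windows, 2 of which are those of MT1H and MT2A. The SLC30A1 window, with 1 match 43 to 49 bases before the RefSeq start, thus had a count shared by many other windows. The RefSeq start used for it lies upstream of the GENCODE gene. The window stops at 211579162, whereas that gene starts at 211578742 on the minus strand, so the bases between were not searched. A match is a stretch of letters and not a measured binding site.

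The members resemble each other closely in their coding sequence, which matters for how reads could be told apart. The 8 MT1 and MT2A coding sequences, from GENCODE 29 transcripts, each have 186 bases with the stop codon and 61 codons before it, 20 of them for cysteine. They were 89.8% to 95.2% identical to MT2A. MT2A is shown as the common form of the family. Among the metallothioneins with at least 5 reads in every library, MT1F is shown as the one with the smallest difference between the groups and MT1H as the one with the largest. Capitals mark bases that differ from MT2A, 16 in MT1F and 15 in MT1H.
MT2A: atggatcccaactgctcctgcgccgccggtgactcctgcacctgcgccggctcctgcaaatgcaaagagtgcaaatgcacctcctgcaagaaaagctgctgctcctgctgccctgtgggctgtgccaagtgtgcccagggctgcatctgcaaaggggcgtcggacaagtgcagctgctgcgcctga
MT1F: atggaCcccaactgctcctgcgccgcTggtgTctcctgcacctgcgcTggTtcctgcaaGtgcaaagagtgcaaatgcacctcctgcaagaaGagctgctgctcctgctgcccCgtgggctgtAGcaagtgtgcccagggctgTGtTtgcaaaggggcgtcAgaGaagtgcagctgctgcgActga
MT1H: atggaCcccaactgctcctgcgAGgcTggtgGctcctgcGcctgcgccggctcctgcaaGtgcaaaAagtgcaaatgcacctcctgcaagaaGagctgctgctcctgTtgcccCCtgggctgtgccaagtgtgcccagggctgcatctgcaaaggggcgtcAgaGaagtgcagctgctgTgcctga

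Over whole transcripts the genes are less alike. Of all stretches of 100 bases in the transcripts of each member, 100% occurred in no other annotated gene for 8 members, 98.6% for MT1H, which shares the rest with MT1HL1, and 88.7% for MT1X. MT1X shares them with AC026461.1, an annotated transcript that overlaps it on the same strand and had 0 reads in all libraries. With stretches of 50 bases the share was 81.7% for MT1X, 83.5% for MT1G, 84.2% for MT1H and 90.1% to 100% for the others. The sources used here do not give the read length. Reads aligned to several places or to overlapping genes were tallied apart from the genes, so the counts of every metallothionein but MT3 could be too low, with MT1X, MT1G and MT1H sharing the most.

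The metallothioneins as a group were far lower in both KO libraries. Summed over the 9 genes they stood at 273, 705, 18.7 and 6.73 CPM in control 1, control 2, KO 1 and KO 2, from 10306, 25054, 513 and 230 reads. Both KO libraries lay below both controls. In bulk RNA, fewer cells with these transcripts and less of them per cell cannot be told apart. Taken library by library, the sum in control 1 was 14.6 times that in KO 1, with a 95% interval of 13.4 to 16.0, and 40.6 times that in KO 2 (35.6 to 46.5). Control 2 was 37.8 times KO 1 (34.6 to 41.3) and 105 times KO 2 (92.1 to 120). These exact intervals cover counting error only. The lowest and the highest ratio lie far outside each other's intervals, while the middle ones overlap. The group means were 489 ± 306 and 12.7 ± 8.44 CPM (SD, n = 2 each), a log2 ratio of -5.27. This ratio was -4.43 without control 2 and -6.17 without KO 1.

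**Figure D1:**
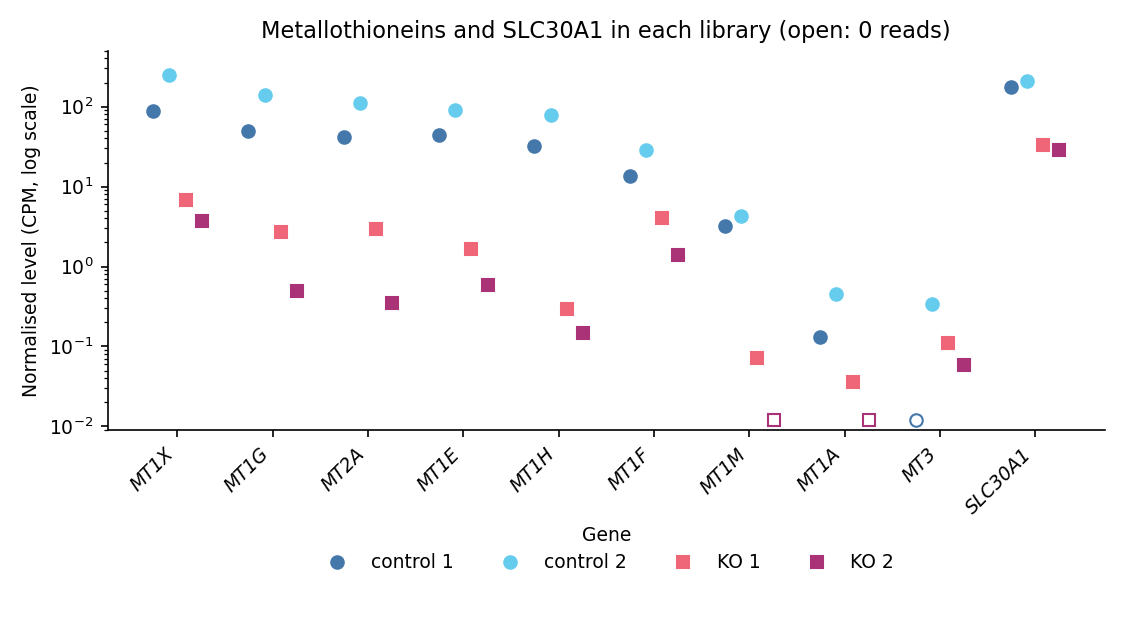
Normalised level in CPM (log scale) of the 10 members, 1 point per library, circles for control and squares for KO, open where a gene had 0 reads and drawn at the lower edge. For every member except MT3 both KO points lie below both control points, and control 2 lies above control 1.

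Within each group the libraries also differed, in the same direction for all members. Control 2 was above control 1 in 10 of 10 members and KO 1 above KO 2 in 10 of 10, while 20.2% of all genes tested had both orders. However, 2 of the members were not among the genes tested, and some KO orders rest on few reads. KO 1 and KO 2 had 1 and 0 reads of MT1A and 2 and 0 of MT1M. They had 3 and 2 of MT3 (interval of the ratio 0.214 to 22.3) and 8 and 5 of MT1H (0.574 to 7.73). For the sum, control 2 was 2.58 times control 1 (2.52 to 2.64) and KO 1 was 2.77 times KO 2 (2.37 to 3.25). Over all genes tested the median of these ratios was 1.01 and 0.996. The order of all 4 libraries was thus control 2, control 1, KO 1 and KO 2. The share of reads outside annotated features had the same order, at 10.8%, 8.40%, 7.41% and 4.59%, as did that of all reads given to no single gene, at 20.3%, 17.8%, 16.7% and 14.4%. The part of these shares in the levels was not tested.

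MT2A, the only functional MT2 gene in humans and in many tissues the most abundant metallothionein, had 42.0 and 111 CPM in control 1 and control 2. KO 1 stood at 2.91 CPM and KO 2 at 0.351. The controls lay far above both KO libraries, and KO 1 was 8.29 times KO 2 (4.49 to 16.7), the widest gap between KO libraries among the members with reads in both. The fitted log2 fold change was -5.62 ± 0.84 (SE), and ran from -7.74 without KO 1 to -4.71 without KO 2.

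MT1X, one of the MT1 forms inducible by metals in many cell types, was the most abundant of the family. It had 87.9 and 252 CPM in the controls, from 3317 and 8947 reads, and 6.76 and 3.69 CPM in KO, from 186 and 126 reads. The groups did not overlap, and in each library MT1X stayed the metallothionein with the most reads. Its fitted log2 fold change was -5.03 ± 0.60 (SE), and ran from -5.59 without control 1 to -4.08 without control 2.

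MT1G had 49.6 and 141 CPM in the controls against 2.73 and 0.497 CPM in KO. MT1E had 44 and 90.7 CPM against 1.67 and 0.585 CPM. Both encode MT1 forms of the same length, and their fold changes were alike, with log2 values of -5.94 ± 0.80 for MT1G and -5.94 ± 0.58 for MT1E (SE). The KO libraries were further apart for MT1G, where KO 1 was 5.49 times KO 2 (3.21 to 9.91), than for MT1E (2.86, interval 1.66 to 5.10), although the intervals overlap. Without KO 1 the log2 values were -7.55 and -6.82, and without control 2 they were -4.98 and -5.32.

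MT1H had the lowest KO level relative to control of the members with at least 5 reads in every library. Its 32.5 and 77.5 CPM in the controls came from 1227 and 2754 reads, against 8 reads (0.291 CPM) in KO 1 and 5 reads (0.146 CPM) in KO 2. Control 1, the lower control, was 112 times KO 1 (56.5 to 259) and 222 times KO 2 (95 to 686). The fitted log2 fold change was -8.00 ± 0.69 (SE), and ran from -8.50 without KO 1 to -7.23 without control 2.

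MT1F had the smallest difference of the tested metallothioneins. Its level was 13.7 and 28.7 CPM in the controls and 4.07 and 1.40 in KO, from 517, 1019, 112 and 48 reads. The groups did not overlap, but control 1 was only 3.36 times KO 1 (2.74 to 4.16), and 9.76 times KO 2 (7.25 to 13.4). The fitted log2 fold change was -2.98 ± 0.59 (SE), and ran from -3.90 without KO 1 to -2.34 without control 2.

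The remaining 3 metallothioneins had few reads, MT1M in KO and MT1A and MT3 in all libraries. MT1M had 122 and 151 reads in the controls, 2 in KO 1 and 0 in KO 2. Taking 3 reads as the limit that a count of 0 allows in 1 library, MT1M was at least 36.8-fold lower in KO 2 than in control 1 and at least 48.4-fold lower than in control 2. Its interval against KO 1 was wide, with control 1 at 44.4 times KO 1 (12.0 to 371). MT1A had 5 and 16 reads in the controls and 1 and 0 in KO, and MT3 had 0 and 12 in the controls and 3 and 2 in KO. Too few reads left these 2 genes out of the fit, and MT3 was the 1 member whose groups overlapped.

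SLC30A1 had 174 and 211 CPM in the controls against 32.9 and 28.7 CPM in KO, from 6577, 7501, 906 and 981 reads. Its libraries lay closer together within a group than those of the metallothionein sum, with control 2 at 1.21 times control 1 (1.17 to 1.25) and KO 1 at 1.15 times KO 2 (1.05 to 1.26). The 4 ratios of a control to a KO library ran from 5.29 to 7.36. The group means were 193 ± 26.0 and 30.8 ± 3.01 CPM (SD, n = 2 each), and the fitted log2 fold change was -2.64 ± 0.28 (SE). With each library left out in turn it stayed between -2.77 and -2.50.

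Of the 10 members, 8 had enough reads to be tested across all genes, and those 8 are not all members. In 9 of 10 both KO libraries lay below both controls, against 16.3% of all 19027 genes tested. Since this contrast chose the members, nothing is read from that count. The median log2 fold change was -5.94 over the 7 tested metallothioneins and 0.029 over all genes tested.

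The make-up of the metallothionein sum differed between the groups. MT1F made up 5.02% of the sum in control 1 (exact Clopper-Pearson 95% interval 4.60 to 5.46) and 4.07% in control 2 (3.83 to 4.32). In KO 1 its share was 21.8% (18.3 to 25.7) and in KO 2 20.9% (15.8 to 26.7). MT1F thus took a larger part of a far smaller sum in both KO libraries, whose intervals overlap. MT1H went the other way, from 11.9% (11.3 to 12.5) and 11.0% (10.6 to 11.4) in the controls to 1.56% (0.676 to 3.05) and 2.17% (0.710 to 5.0) in KO. MT1E made up 16.1% and 12.9% in the controls and 8.97% (6.64 to 11.8) and 8.70% (5.39 to 13.1) in KO, where the interval of KO 2 takes in the share of control 2.

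For the other large members the shares of KO 1 lay nearer to those of the controls. MT1X held 32.2% and 35.7% of the sum in the controls and 36.3% in KO 1, where the interval of 32.1 to 40.6 spans both, but 54.8% in KO 2 (48.1 to 61.3). MT2A held 15.4%, 15.7% and 15.6% in control 1, control 2 and KO 1 and 5.22% in KO 2 (2.72 to 8.94). MT1G held 18.2% and 19.9% in the controls, 14.6% in KO 1 (11.7 to 18.0) and 7.39% in KO 2 (4.36 to 11.6). The MT1G shares of both KO libraries lay below those of both controls, and the shares of MT1X and MT2A set KO 2 apart from the other 3 libraries. MT1M held 1.18% and 0.603% in the controls and 0.390% in KO 1. In KO 2, where it had 0 of 230 reads, 3 reads would be a share of 1.30%, and the exact interval reaches 1.59%. With 2 libraries a group no exact permutation test of samples can reach the threshold of 0.05, so the shares were not tested.

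**Figure D2:**
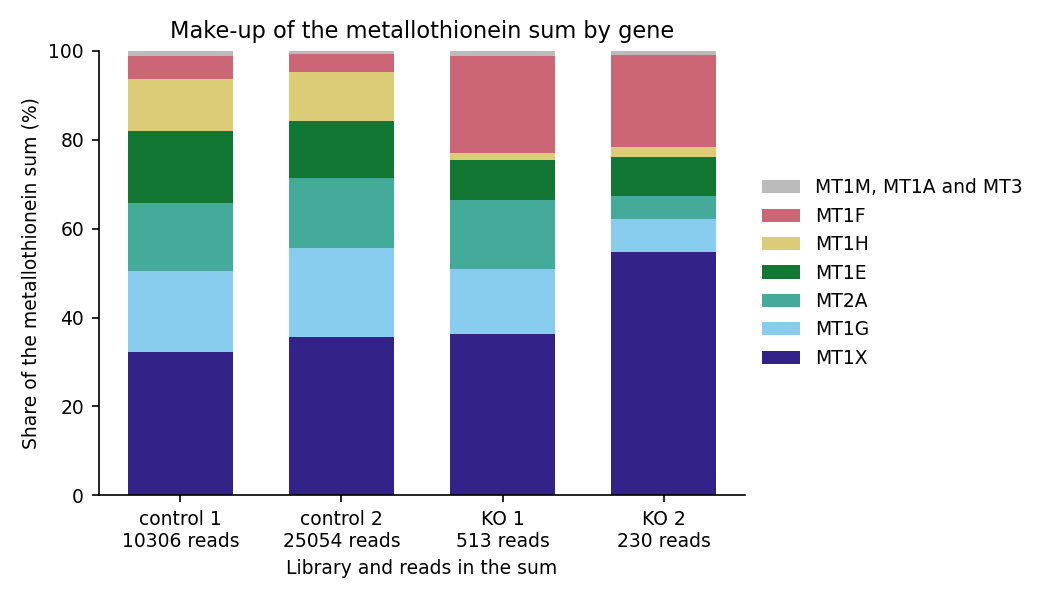
Share of each gene in the summed metallothionein reads, 1 stacked bar per library, with the reads in the sum under each bar. MT1F fills 4.07% to 5.02% of the control bars and 20.9% to 21.8% of the KO bars, MT1H shrinks from 11.0% or more to 2.17% or less, and MT1X fills 54.8% of the KO 2 bar.

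Levels of different genes were compared per length, as CPM per kb of the principal GENCODE transcript. In control 1 the order was MT1X (195 CPM per kb), MT1G (122), MT1H (81.9), MT1E (62.5), MT2A (53.4), SLC30A1 (31.8), MT1F (19.9), MT1M (3.90) and MT1A (0.335), with MT3 at 0 reads. In control 2 it was MT1X (560 CPM per kb), MT1G (346), MT1H (195), MT2A (141), MT1E (129), MT1F (41.6) and SLC30A1 (38.6). The order of the metallothioneins in the 2 controls was the same except that MT2A and MT1E changed places, and MT1F and SLC30A1 did too. Since the controls differed 2.58-fold in the sum, the levels of neighbours in this order overlap between libraries.

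In KO the order was another one. MT1X still led in KO 1 (15.0 CPM per kb), followed by MT1G (6.72), SLC30A1 (6.02), MT1F (5.90), MT2A (3.70), MT1E (2.38) and MT1H (0.733). In KO 2 MT1X (8.19 CPM per kb) and SLC30A1 (5.24) were followed by MT1F (2.03), MT1G (1.22), MT1E (0.831), MT2A (0.447) and MT1H (0.368). MT1H, with only MT1X and MT1G above it in both controls, thus stood below MT1F, MT2A, MT1E and SLC30A1 as well in both KO libraries. The transcript lengths are those of the annotation, 786 bases for MT2A and 397 for MT1H, and another choice of transcript would move these levels.

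Measured against the exporter, the storage genes stood lower still in KO. The summed metallothionein level was 1.57 times that of SLC30A1 in control 1 and 3.34 times in control 2, both as CPM, and 0.566 and 0.234 times in KO 1 and KO 2. The ratio of MT1F to SLC30A1 did not separate the groups, at 0.0786 and 0.136 in the controls and 0.124 and 0.0489 in KO. For MT1H it did, at 0.187 and 0.367 against 0.00883 and 0.00510.

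Among the metallothionein genes and pseudogenes outside the list, 12 rows were found, and 4 of them had 0 reads in all libraries. The others together held 62, 105, 7 and 4 reads in control 1, control 2, KO 1 and KO 2, which is 0.417% to 1.71% of all metallothionein reads. MT1JP, a transcribed pseudogene between MT1M and MT1A, had 32 and 50 reads in the controls and 2 and 0 in KO. MT1L had 11 and 23 against 3 and 0, and MT1IP had 8 and 20 against 2 and 0. MT1DP, with 5 reads in each control and 0 in KO, MT1CP (3 reads in all), MT1HL1 (2), MT1P1 (4) and MT1XP1 (8) were too sparse to compare. The transcribed pseudogenes of the cluster thus lay on the same side as their neighbours, and MT1JP and MT1L, the 2 with enough reads for the fit, had adjusted p-values of 0.580 and 0.997 in edgeR.

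Among zinc transporters outside the members no gene was called, but with 2 libraries a group the test can miss large differences. SLC35F2 itself, at a log2 fold change of -1.65, was not called, nor was GATA2 at -5.08. A count of 0 called here and below thus does not show that genes were unchanged. The shares of all genes called, given beside such counts, take in members chosen on this contrast. Of 24 zinc transporters other than SLC30A1, 19 had enough reads, and 0 were called by edgeR's quasi-likelihood test (adjusted p under 0.05), as against 0.0263% of all genes (0.021% as lower and 0.00526% as higher). DESeq2 called 0 too, against 0.273% of all genes, and 3 had an unadjusted p under 0.05 in edgeR, against 4.06%. Their median log2 fold change was -0.01. Of the 19, 6 lay below both controls, 2 above both and 11 overlapped, against 16.3% below and 15.8% above over all genes. The list thus held larger shares below both controls and with an unadjusted p under 0.05 than all genes, and a smaller share above. These shares were not tested. The most abundant were the importers SLC39A1, at 371 and 268 CPM in the controls against 329 and 234 in KO (log2 difference -0.18, 95% interval -0.85 to 0.48), SLC39A14 (-0.29, -1.27 to 0.70) and SLC39A10 (0.25, -0.70 to 1.20). SLC30A2, an exporter that is itself a known MTF1 target and was named here for its values, stood at 1.01 and 1.89 CPM in the controls and 0.509 in KO 1, with 0 reads in KO 2. SLC30A3, which loads zinc into vesicles, had 21.1 and 22.6 CPM against 14.3 and 4.88, and the importer SLC39A8 had 29.9 and 19.8 CPM against 15.9 and 10.6, both also named after their values were seen. Without KO 1 a single KO library remains and takes the spread of the controls, so only effect sizes are given here from that fit. Against 3 reads in KO 2, SLC30A2 was at least 11.5-fold lower there than in control 1 and at least 21.5-fold lower than in control 2. SLC30A3 had a log2 fold change of -2.15 without KO 1, and SLC30A8 had 0, 2, 3 and 66 reads in control 1, control 2, KO 1 and KO 2.

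MTF1 and other genes that share stimuli with the metallothioneins were examined in the same way. Of 10 genes of the MTF1 list 9 were tested and 0 called, with a median of -0.11. MTF1 RNA stood at 19.2 and 21.9 CPM in the controls and 19.2 and 18.3 in KO. The selenoprotein genes SELENOW (log2 fold change 0.16, interval -0.54 to 0.85) and SELENOH (0.06, -0.58 to 0.71) and the thioredoxin reductase gene TXNRD1 (-0.11, -0.71 to 0.49), reported MTF1 targets, were the most abundant of the list. LCN2, an iron-related secreted protein gene named after its values were seen, was the 1 below both controls, at 0.318 and 0.450 CPM against 0.145 and 0.0877 in KO (-1.72, -3.52 to 0.09). Copper binds to metallothioneins as well, and of 13 genes of copper handling 12 were tested and 0 called (median 0.16), with SOD1, a copper and zinc enzyme, at 0.24 (-0.40 to 0.88), the copper importer SLC31A1 at -0.19 (-0.79 to 0.40) and the copper chaperone SCO1 at -0.03 (-0.70 to 0.63). CP, the copper protein ceruloplasmin, also named for its values, stood at 1.88 and 2.34 CPM in the controls against 1.20 and 0.351 in KO (-1.5, -3.02 to 0.03). Without KO 1 its log2 fold change was -2.56.

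Oxidants, heat and glucocorticoids also raise metallothionein RNA in many cells. Of 12 genes of the NRF2 and oxidant list all were tested and 0 called (median 0.11), and the ferritin genes FTL (0.44, -0.12 to 1.01) and FTH1 (0.14, -0.45 to 0.72) and the thioredoxin gene TXN (0.21, -0.47 to 0.89) led in level. HMOX1, the heme oxygenase that metals induce, stood at 43.2 and 47.1 CPM in the controls against 27.2 and 17.3 in KO (log2 difference -1.02, interval -1.76 to -0.29, adjusted p = 0.997 in edgeR) and was named after its values were seen. Of 11 heat shock genes 9 were tested and 0 called (median 0.31), with 0 below and 3 above both controls, against 16.3% and 15.8% of all genes, and 2 with an unadjusted p under 0.05 in edgeR, against 4.06%. Among them HSPA8 showed a log2 difference of 0.78 (0.13 to 1.43), HSP90AA1 one of 0.29 (-0.41 to 0.98) and HSPD1 one of 0.02 (-0.54 to 0.57). HSPA1A and HSPA1B are listed at 0 reads in every library, in counts that leave out reads aligned to several places. Whether such reads existed for these genes was not tested.

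Of 9 glucocorticoid response genes 8 were tested and 0 called (median -0.17). FKBP5 (0.13, -0.56 to 0.82), PER1 (0.37, -0.33 to 1.08) and SGK1 (-0.59, -1.30 to 0.11) were the most abundant. Over the MTF1, oxidant, heat shock and glucocorticoid lists together 38 of 42 genes were tested, 5 lay below and 6 above both controls (16.3% and 15.8% of all genes), and 5 had an unadjusted p under 0.05 in edgeR (4.06% of all genes). The share with an unadjusted p under 0.05 was thus higher than over all genes, which was not tested. DESeq2 called 0 of the 38. Without KO 1 the log2 fold change was -1.37 for HMOX1, -1.72 for SLC7A11, -1.44 for DUSP1, 1.07 for HSPB1 and 1.06 for DNAJB1. These 5 were named after that fit was seen. The medians of these lists lay between -0.17 (glucocorticoid) and 0.31 (heat shock), against 0.029 over all genes, as the plot of fold changes by list shows.

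**Figure D3:**
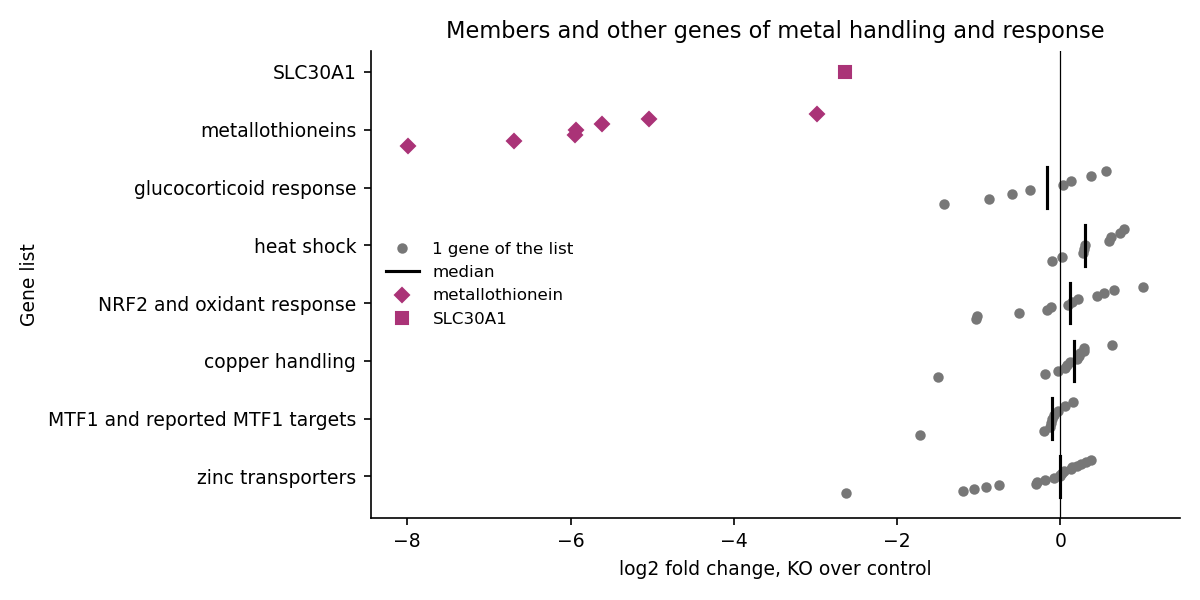
Log2 fold change of KO over control for each tested gene of 6 lists (grey points, black line for the median), with the 7 tested metallothioneins and SLC30A1 above them. The medians of the lists lie between -0.17 and 0.31, whereas the metallothioneins run from -8.00 to -2.98 and SLC30A1 stands at -2.64.

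Within 500 kb of the metallothionein cluster 10 other protein-coding genes had enough reads to be tested and 0 were called by edgeR (0.0263% of all genes). Their median log2 fold change was 0.14, with 1 below and 4 above both controls, against 16.3% and 15.8% of all genes. BBS2, a ciliary gene and the nearest tested one before the cluster, had 13.1 and 29.1 CPM in the controls and 13.6 and 27.6 in KO (log2 difference -0.03, interval -1.12 to 1.05). NUP93, which encodes a subunit of the nuclear pore and lies next after it, had 150 and 137 CPM in the controls and 155 and 158 in KO (0.12, -0.45 to 0.70). HERPUD1, a gene of the endoplasmic reticulum stress response, had 17.9, 52.3, 17.3 and 13.2 CPM in control 1, control 2, KO 1 and KO 2, with its highest level in control 2 as for the metallothioneins. Its log2 fold change was -1.20 ± 0.49 (SE) with an adjusted p of 0.997 in edgeR, and it was named after its values were seen.

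Around SLC30A1 7 other protein-coding genes were tested within 500 kb, and 0 were called by edgeR (0.0263% of all genes). Their median log2 fold change was 0.0026, with 1 below and 1 above both controls, against 16.3% and 15.8% of all genes. TRAF5, an adaptor of TNF receptors on one side, showed a log2 difference of -0.24 (interval -0.98 to 0.50), and NEK2, a mitotic kinase on the other side, one of 0.69 (-0.39 to 1.78). NEK2 had 25.7, 28.4, 21.7 and 65.5 CPM, so its highest level was in KO 2. Over both regions 1 of 17 genes had an unadjusted p under 0.05 in edgeR, against 4.06% of all genes. DESeq2 called 0, against 0.273% of all genes. Without KO 1 the log2 fold change was -1.39 for HERPUD1 and 1.29 for NEK2.

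**Figure D4:**
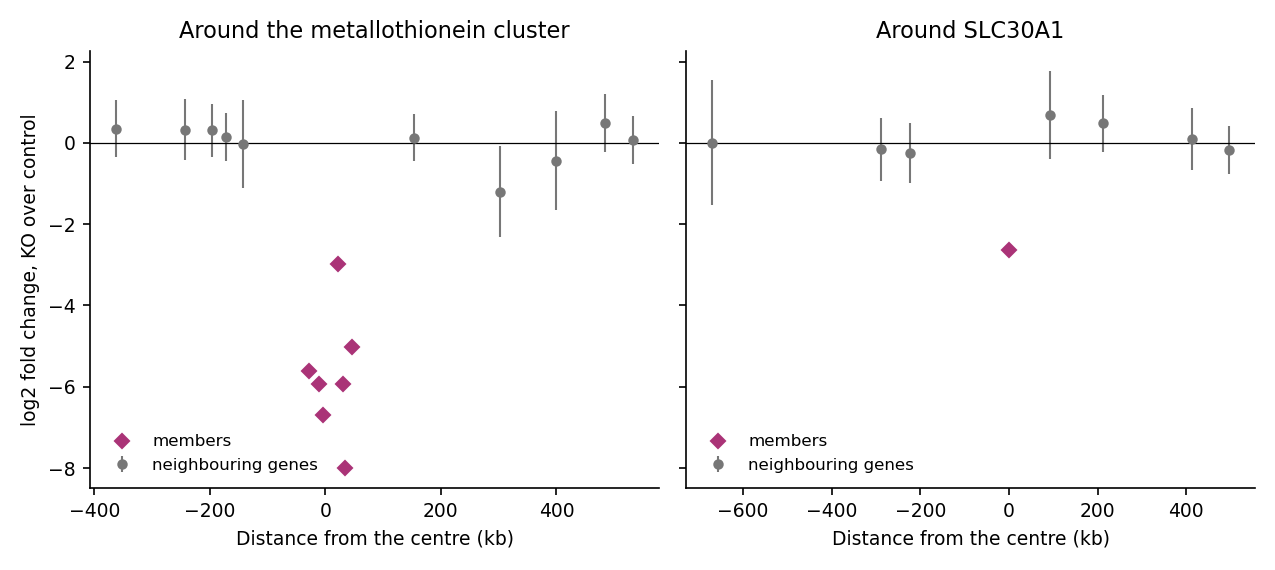
Log2 fold change of KO over control against the distance in kb from the centre of the metallothionein cluster (left) and of SLC30A1 (right), with grey circles and 95% intervals for the tested neighbouring protein-coding genes and diamonds for the tested members. The members lie between -8.00 and -2.64, while the neighbours lie between -1.20 and 0.69.

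A few genes elsewhere in the genome had a profile over the 4 libraries close to that of the metallothionein sum. Likeness was the root mean square distance between log2 CPM profiles, each centred on its own mean, among 15036 genes averaging 1 CPM or more and with reads in every library. It rests on 4 libraries and mostly ranks genes by how far they differ between the groups. The nearest was C9orf64, an enzyme gene of queuosine salvage now also named QNG1, at a distance of 0.505, at 2.44 and 2.48 CPM in the controls against 0.109 and 0.0292 in KO. It was followed by the long non-coding RNAs LINC00707 (0.585), LINC-ROR (0.686), AC064802.1 (0.738) and AC027288.1 (0.763). Within the family MT1X (0.293) and MT1E (0.371) were nearer to the sum, which they help to make up, and MT1F (1.13), MT1H (1.33) and SLC30A1 (1.45) were farther away.

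For SLC30A1 the nearest profiles were those of the non-coding RNAs AC110285.2 (0.186), AP002907.1 (0.224) and LINC02582 (0.258), the chemokine gene CXCL1 (0.331) and CCDC141 (0.339). CXCL1 had 1.40 and 2.76 CPM in the controls and 0.327 and 0.205 in KO. Of the metallothioneins with reads in every library MT1F (0.586) was the closest to SLC30A1 and MT1H (2.68) the farthest.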

How the data were processed

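Polyadenylated RNA of 4 H9 libraries was measured. The deposited values are read counts per Ensembl gene that the authors made with HTSeq 0.11.0 from STAR 2.6.0a alignments to GRCh38, after cutadapt 1.8.1 and FastQC 0.11.7, per the submitters' processing notes. RNA was taken up in Trizol, column purified, and made into stranded mRNA libraries, per the labels' protocols. The sources used here do not give the annotation release, the strand setting or the read length. The counts carry no normalisation, although the labels' protocols mention a quantile step.

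Reads given to no single gene were left out. They were 17.8%, 20.3%, 16.7% and 14.4% of counted alignments in control 1, control 2, KO 1 and KO 2, and reads outside annotated features were 8.40%, 10.8%, 7.41% and 4.59%, lower in both KO libraries. Their part in the results was not tested. Gene names and positions came from GENCODE 29, in which 93.8% of 60483 identifiers matched without version.

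Genes were filtered with edgeR's filterByExpr (minimum count 10, 19027 genes kept), scaled with TMM and tested with edgeR 4.0.16 in R 4.3.3 (quasi-likelihood F test, robust, two-sided, Benjamini-Hochberg over all genes, threshold 0.05). Each SE was taken as the absolute log2 fold change over the root of the F statistic. Ratios of 2 libraries carry exact conditional binomial 95% intervals. Reads without molecular identifiers are not independent molecules, so intervals cover counting error only. Replicates of a group differed by a chi-square of 61.5 (control) and 141 (KO) per degree of freedom, far above sampling noise. The members, lists and naming rule were chosen with earlier results of these data known. Named were all members, other metallothionein rows with reads, SLC35F2, called or else the 3 most abundant genes of each list, the nearest and any called neighbours within 500 kb, and the 5 likest profiles. The motif search was added after the data were seen. Alternatives tried were scaling by RLE, by upper quartile or by library size only, no filter, a mean CPM of at least 1, DESeq2 1.42.0, edgeR's legacy fit, the replicate block, each library left out, and 2 other metallothionein sums.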

Additional observations from a re-analysis of the deposited data

How the results depend on the processing

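Every alternative kept the metallothioneins that could be tested and SLC30A1 lower in KO. The log2 ratio of the metallothionein sum, -5.27, ran from -6.17 to -4.43 over 9 alternatives, and was -5.25 with pseudogenes and -5.42 without MT1X. The log2 fold change of SLC30A1 ran from -2.78 to -2.50 over 12. Library size only moved the median of all genes from 0.029 to -0.097. No share of a gene in the sum left its counting interval when pseudogenes were added. The rows added held only 0.417% to 1.71% of all metallothionein reads, so the shares could hardly have moved.

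Over all genes 5 were called, 4 lower and 1 higher. The count was 0 with library size only, 0 with upper-quartile factors and 0 when genes under a mean CPM of 1 were left out, where 787, 801 and 523 genes had an unadjusted p under 0.05 in edgeR. It was 8 with no filter, 1 with the legacy fit and 52 with DESeq2. With each library left out in turn it was 3 to 1096, with 188 without KO 2, 1096 without KO 1, 4 without control 1 and 3 without control 2. The causes were not tested. With the replicate block it was 76. The number is not said to mark a shared culture, and deviations of same-numbered libraries correlated at 0.33. The block changed no count of the lists or neighbours, which stayed at 0. With each library left out in turn those counts ran from 0 to 3 for zinc transporters, 0 to 5 for the metal response lists and 0 to 2 for neighbours. The highest came without KO 1, the setting with the most genes called in all. Depth limits MT1A and MT3 in all libraries (0 to 16 reads) and MT1M and MT1H in KO (0 to 8 reads).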

Other observations

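Genes other than the metallothioneins and SLC30A1 whose 250 bases before the RefSeq start hold several matches to the metal response element core did not stand lower in KO as a group. Of those with 4 or more matches 75 were tested and 0 were called by edgeR, and 2 had an unadjusted p under 0.05. In 5 of them (6.67%) both KO libraries lay below both controls, and in 18.7% above both. With 0 matches these shares were 14.4% and 17.3%, and over all genes, with or without a searched window, 16.3% and 15.8%. The median log2 fold change with 4 or more matches was 0.11. The median was 0.12 over 277 genes with 3 matches, 0.09 over 1091 genes with 2, 0.09 over 3349 genes with 1 and 0.06 over 7412 genes with 0. CARS2, a mitochondrial cysteinyl-tRNA synthetase, had 12 matches and a log2 fold change of 0.16 ± 0.30 (SE), and RNPC3, a protein of the minor spliceosome, had 10 and -0.29 ± 0.37 (SE). This grouping was chosen after the data were seen. A match does not mark a gene as bound by MTF1, and 24.8% of all windows held at least 1. Whether targets of MTF1 changed was therefore not tested.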
